A study of Homo sapiens with 24 samples.

Results

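The 47 interferon-stimulated genes described here were chosen by symbol from a list of genes known to respond to interferon, among the 37967 genes of the larger deposited table: 40 were read from a table of estimated counts and the other 7 (SP100, SP110, STAT2, TRIM14, TRIM21, TRIM22 and TRIM5), whose symbols sort after the end of that table, from a length-scaled version of it. The members were chosen with earlier results of these data known, so the shares of them called are described and not tested. The larger table ended at the symbol TSC22D3, so genes whose symbols sort later were not analysed here, and all genes below means the genes of the table named. RNA was sequenced from HCT116, a human colorectal carcinoma cell line, and from HCT116 oxpl-R, a population derived from it by repeated pulses of the platinum drug oxaliplatin, which forms DNA adducts. Each line was sampled in 4 conditions with 3 replicates, giving 8 groups and 24 samples: untreated control, 25 µM oxaliplatin for 24 h, 0.5 µg/mL doxycycline (named E1A here), and doxycycline given 3 h before oxaliplatin (E1A + oxaliplatin). All 24 samples, controls included, come from cells that carry a Tet-On transgene for the adenoviral protein E1A, which doxycycline switches on. No doxycycline-treated cells without the transgene were analysed here, so an effect of E1A and an effect of doxycycline cannot be told apart. E1A itself is a viral gene and its level was not analysed here. The HCT116 oxpl-R population is karyotypically mixed, so a difference between the lines is a difference between these populations. The authors also report changed copy numbers of single chromosomes in it, so gene copy number and regulation cannot be told apart in a difference between the lines.

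Interferons are secreted proteins that a cell releases when sensors detect foreign or misplaced nucleic acid. They bind receptors on the same or neighbouring cells, and Janus kinases then activate STAT2, which joins IRF9 and, in a complex, binds the interferon-stimulated response element in the promoters of target genes. The products sense RNA, degrade it, block viral entry or translation, or amplify the response. Several of these genes can also be switched on by IRF1, IRF3 or IRF7 without interferon, and adenoviral E1A is known as an antagonist of interferon-dependent transcription.

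Counts in the table of estimated counts summed to between 24838095 and 37927720 per sample, and those in the length-scaled table to between 28004261 and 42613322. Values are given as counts normalized for library size, 1 for each replicate in the order 1, 2 and 3. They are not divided by transcript length, so a level is compared between groups and never between genes. A member was called when its adjusted p-value, from edgeR's quasi-likelihood test over all genes, was below 0.05. Shares of all genes called are over every gene with a count in any sample. A mean of at least 10 normalized counts was reached by 40 of the 47 members and by 13227 genes of the 2 tables together. Shares of members and of all genes were not matched for count level. Fold changes are log2FC ± SE with 3 samples per group. The sample titles call the replicates biological, and the paper describes biological triplicates for the counts it plots. Neither says that they came from separate cultures. The p-values thus measure the spread between these samples, whatever its source. The 7 markers of colorectal epithelium summed to between 151620 and 479751 normalized counts in a sample, the 4 leukocyte markers to between 10.0 and 192 (mostly CD68, with MS4A1 at 0 in every sample and CD3E at no more than 5.08), the 3 fibroblast markers to between 408 and 1559 and the 2 endothelial markers to at most 18.9. Most of the epithelial sum was KRT8, KRT18 and KRT19, and the epithelial marker LGALS4 had at most 21.4 in any sample. Most of the fibroblast sum was COL1A1. In these bulk samples a smaller number of expressing cells and less RNA per cell cannot be told apart. As checks of the treatments, 8 of 10 p53 targets rose with oxaliplatin in HCT116 and 10 of 10 in HCT116 oxpl-R, whereas 0 of 15 E2F targets, which E1A is known to release from repression, were called with doxycycline alone in either line by edgeR, with 1 in HCT116 and 2 in HCT116 oxpl-R at an unadjusted p below 0.05 and 0 by DESeq2.

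The members covered a wide range of counts. In 21 of 47 members every sample had at least 100 counts, and in 7 no sample had more than 20 counts. The 7 were MX2, IFI44, IFI44L, RSAD2, SAMD9L, OAS2 and CGAS. CGAS, the sensor of cytosolic DNA, had normalized counts of 4.90, 0.983 and 2.09 in HCT116 control and 1.05, 2.12 and 0 after oxaliplatin, and 1.17, 0 and 4.21 and 2.01, 0 and 7.04 in HCT116 oxpl-R. At this depth no change in CGAS was detectable. MX1, a dynamin-like GTPase against RNA viruses, had 12.7, 10.8 and 17.7 in HCT116 control, 27.3, 19.1 and 12 after oxaliplatin, 24.6, 20.2 and 26.3 in HCT116 oxpl-R control and 18.1, 21.1 and 28.2 after oxaliplatin, and was called in none of the 12 comparisons of 2 groups by edgeR. Its treated samples overlapped the controls within each line. A heat map of the 40 members with a mean of at least 10 normalized counts shows where the groups differ.

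**Figure D1:**
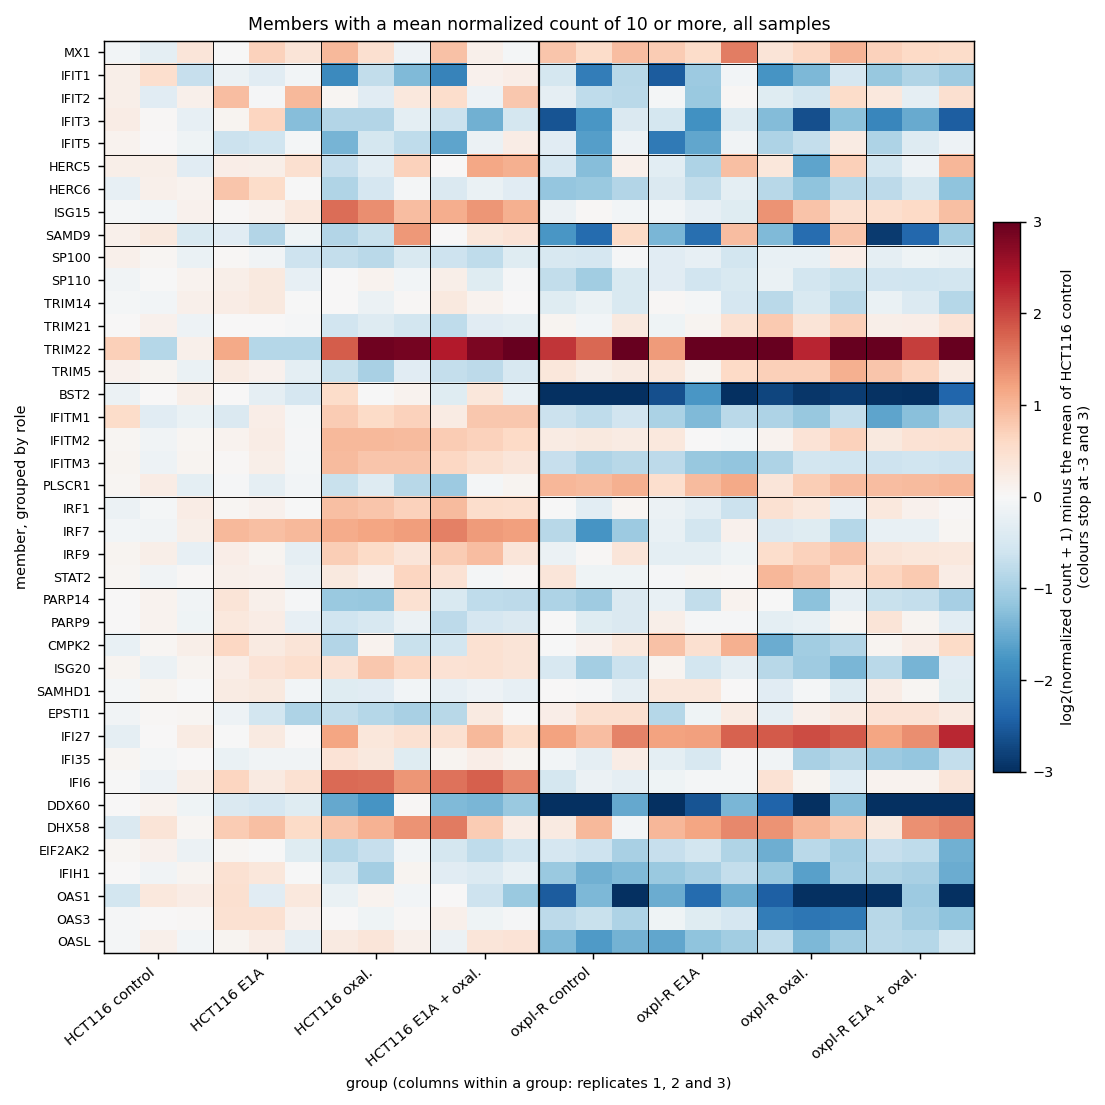
Heat map of log2(normalized count + 1) in all 24 samples, for the 40 members with a mean normalized count of at least 10, relative to the mean of HCT116 control, with members grouped by role and samples by group. ISG15, IFI6, IFITM2 and IFITM3 are red in the HCT116 samples given oxaliplatin, BST2 and OAS1 are blue in the 12 HCT116 oxpl-R samples, and SAMD9 is blue in replicates 1 and 2 of HCT116 oxpl-R but not in replicate 3 of 3 of its 4 groups.

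The promoters show what the members share beyond their name. RefSeq promoter windows (GRCh38.p14, 250 bases before to 50 bases after the start site) were present for 38 of the 47 members. CGAS, DHX58, IFIT2, IFITM2, IRF7, MX2, OAS2, OASL and TRIM22 had no entry. The core of the interferon-stimulated response element, searched as GAAANNGAAA on both strands, was found in 27 of the 38 (71.1%) and in 4.38% of the 27305 genes with a window. With the letters CT required after it, the core remained in 16 of the 38 (42.1%) against 0.322% of all genes, and with a shorter second unit (GAAANNGAA) it was in 28 (73.7%) against 9.86%. TTCNNNGAA, the core of the gamma-activated sequence, was found in 13 of the 38 (34.2%) and in 9.38% of all genes, and matches of the 2 motifs overlapped at 6 places. A match describes letters in a window and not a bound site. The stretches below belong to members on which the later results turn, with matches in capitals and the strand of the gene:
ISG15, chr1:1013360-1013417, plus strand: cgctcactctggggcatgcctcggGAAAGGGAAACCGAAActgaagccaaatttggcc
IFI6, chr1:27672315-27672372, minus strand: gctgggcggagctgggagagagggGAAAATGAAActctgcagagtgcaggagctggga
IFITM3, chr11:320879-320936, minus strand: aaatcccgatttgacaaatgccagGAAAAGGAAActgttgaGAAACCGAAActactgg
IFIT1, chr10:89392483-89392540, plus strand: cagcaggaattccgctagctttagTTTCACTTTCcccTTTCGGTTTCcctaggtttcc
OAS3, chr12:112938307-112938364, plus strand: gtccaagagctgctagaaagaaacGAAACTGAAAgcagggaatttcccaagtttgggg
BST2, chr19:17405727-17405784, minus strand: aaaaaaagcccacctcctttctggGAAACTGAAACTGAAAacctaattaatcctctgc
TRIM5, chr11:5685068-5685125, minus strand: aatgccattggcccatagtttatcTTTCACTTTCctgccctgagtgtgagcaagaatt
TRIM21, chr11:4393653-4393709, minus strand: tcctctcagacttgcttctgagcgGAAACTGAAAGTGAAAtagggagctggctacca
In ISG15, BST2 and TRIM21 the matches overlap in a run of 3 GAAA units. The stretches of IFITM3 and IFIT1 hold a pair of separate matches, and in IFIT1 and TRIM5 the matches read on the opposite strand. Outside the printed stretches, IFI6 has further matches that begin at -115 and -93 from the start site, and OAS3 has another at -12. The match of TRIM21 begins 17 bases after the start site, and those of the other 7 lie before it. IRF1 held no match to the response element in its window and is shown with its gamma-activated core:
IRF1, chr5:132490865-132490921, minus strand: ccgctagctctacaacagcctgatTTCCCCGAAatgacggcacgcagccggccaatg
Members that hold the element differed in their responses. ISG15, IFI6 and IFITM3 rose with oxaliplatin in HCT116, OAS3 fell with it in HCT116 oxpl-R, TRIM5 fell in HCT116, and IFIT1 was called in no comparison of 2 groups in the main edgeR fit. In HCT116 given oxaliplatin, 3 of the 27 members with the core were higher and 1 was lower, against 1 and 1 of the 11 without it and 3 and 0 of the 9 without an entry, beside 8.74% of all genes called higher and 8.61% lower. In the untreated lines, 2 of the 27 were higher and 6 lower in HCT116 oxpl-R, against 0 and 3 of the 11 and 1 and 2 of the 9 without an entry, beside 7.19% and 6.93% of all genes.

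The first question was how oxaliplatin moved the members in the parental line. In HCT116, 7 of 47 members rose after 24 h of 25 µM oxaliplatin and 2 fell, while 8.74% of all genes in the table of estimated counts were called higher and 8.61% lower (9.25% and 7.15% in the length-scaled table). The share of members called was 14.9% higher and 4.26% lower. The median log2FC of the 47 members was -0.00 and that of all genes 0. DESeq2 called 14 members, the 9 and DHX58, IFI27, IRF9, ISG20 and TRIM21. The genes that rose were transcription factors of the pathway (IRF1 and IRF7), the ubiquitin-like modifier ISG15, the mitochondrial protein IFI6, the membrane proteins IFITM2 and IFITM3, which hinder fusion of virus with the cell membrane, and the ubiquitin ligase gene TRIM22.

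IFI6, an inhibitor of apoptosis and of flavivirus replication, had 358, 324 and 411 normalized counts in HCT116 control and 1186, 1159 and 911 after oxaliplatin (log2FC 1.57 ± 0.21, adjusted p-value 4.71e-06). ISG15, which is conjugated to other proteins as ubiquitin is, had 2489, 2446 and 2814 and 8231, 6752 and 4890.5 (log2FC 1.36 ± 0.20, adjusted p-value 1.91e-05). IRF7, the factor that amplifies interferon production, had 120.4, 119 and 143 and 275, 288 and 302 (log2FC 1.18 ± 0.24, adjusted p-value 0.000935). In each of these genes all 3 treated samples lay above all 3 controls. IFITM3 went from 9133, 7785 and 9179 to 16773, 15462 and 15393 (log2FC 0.87 ± 0.16, adjusted p-value 0.00036). Its neighbour IFITM2 had 3443, 3051 and 3441 and 6452, 6472 and 6417 (log2FC 0.96 ± 0.16, adjusted p-value 0.000104). IFITM2 (chromosome 11, 303655 to 309397, GRCh38) and IFITM3 (319676 to 329475) have near-identical sequences, so the split of reads between them is uncertain, and both rose. IRF1, which is induced by many stresses, had 502, 549.5 and 663 and 1054, 1018 and 917 (log2FC 0.80 ± 0.21, adjusted p-value 0.00666), and its call was lost without HCT116 control replicate 1 (adjusted p-value 0.05).

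TRIM22, an antiviral ubiquitin ligase, had 1.96, 0 and 1.02 normalized counts in HCT116 control and 5.41, 12.8 and 12.3 after oxaliplatin. With 3 raw counts in the control group and 30 in the treated group, the ratio was 10.4 with a 95% exact interval of 3.22 to 53, which covers counting error only. Its adjusted p-value of 0.0493 was lost without any 1 of HCT116 control replicates 1, 2 and 3 and HCT116 oxaliplatin replicates 1, 2 and 3 (adjusted p-value 0.0579 to 0.184). TRIM22 lies inside the annotated span of TRIM5 on the opposite strand of chromosome 11 (TRIM22 at 5689610 to 5737089, TRIM5 at 5663195 to 5938619, GRCh38), and whether the counting used strand is not given in the sources used here. TRIM5, a restriction factor for retroviral capsids, moved the other way, from 675, 655 and 539 to 388, 316 and 492 (log2FC -0.64 ± 0.21, adjusted p-value 0.0351). SP100, the nuclear body protein, had 976, 905 and 757 and 532, 497 and 642 (log2FC -0.66 ± 0.21, adjusted p-value 0.0256). Leaving out 1 sample ended either call. TRIM5 lost its call without any 1 of HCT116 control replicates 1 and 2 and HCT116 oxaliplatin replicates 1 and 2 (adjusted p-value 0.115 to 0.202). SP100 lost its call without any 1 of HCT116 control replicates 1 and 2 and HCT116 oxaliplatin replicates 1 and 2 (adjusted p-value 0.0846 to 0.123).

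IFIT1, IFIT2, IFIT3, IFIH1, EIF2AK2 and DHX58 did not pass the test in this comparison. IFIT1, which binds viral RNA lacking cap methylation, had 120.4, 151 and 64.7 in HCT116 control and 27.3, 62.6 and 41.6 after oxaliplatin (log2FC -1.36 ± 0.50, adjusted p-value 0.0604). IFIT2 and IFIT3, its partners, had 34.3, 23.6 and 33.4 and 30.4, 26.5 and 21.9 in control and 31.5, 23.3 and 37.9 and 13.6, 13.8 and 21.2 after the drug (log2FC 0.03 ± 0.41 and -0.69 ± 0.58). All 3 treated samples of IFIT1 lay below the controls, but the difference did not pass the test. Among the sensors of double-stranded RNA, IFIH1 had 279, 258 and 292 and 192, 135 and 292 (log2FC -0.42 ± 0.25) and the kinase EIF2AK2, which shuts down translation, had 2172, 2298 and 1854 and 1153, 1309 and 1979.7 (log2FC -0.51 ± 0.22, adjusted p-value 0.107). DHX58, a helicase that modulates this sensing, had 14.7, 26.5 and 20.9 and 36.7, 42.5 and 52.7 (log2FC 1.08 ± 0.40, adjusted p-value 0.0606). Of these 6 genes, DHX58 was called by DESeq2 (adjusted p-value 0.0238) and with filterByExpr (adjusted p-value 0.0247). It was also called with RLE size factors, a replicate block, the compared groups alone and the line alone (adjusted p-value 0.0382 to 0.0471). IFIT1 was called with a replicate block (adjusted p-value 0.0342), the compared groups alone (adjusted p-value 0.0388) and a block within each line (adjusted p-value 0.033). HCT116 oxaliplatin replicate 3 stood apart in this group: 7 of the 40 members of the heat map (17.5%) were more than 1.5-fold above both other replicates there, among them SAMD9, PARP14, DDX60, IFIH1 and HERC5, beside 13.0% of the 13227 genes with a mean of at least 10. Without this replicate, 12 members were called in this comparison, 8 of them among the 9 given above. PARP14, a mono-ADP-ribosyltransferase, had 149, 145 and 445 in this group, and its partner PARP9 had 208, 224 and 277.

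Around the members, other genes of the interferon pathway were examined, beginning with the ligands. Of 9 ligand genes looked for, 7 had a count in any sample and 0 were called by edgeR with oxaliplatin alone in either line, with 0 in HCT116 and 1 in HCT116 oxpl-R at an unadjusted p below 0.05 and 0 by DESeq2. IFNB1 had at most 1.12 normalized counts in any sample, and at this depth no change in it was detectable. IFNL1, encoding a lambda interferon, had 0, 0 and 0.924 in HCT116 oxaliplatin and 2.05, 12 and 10.9 in HCT116 E1A + oxaliplatin, where the values were highest, and was not called. The kinase gene JAK1 fell in HCT116 with oxaliplatin (log2FC -0.64 ± 0.20, adjusted p-value 0.0219). STING1, the adaptor of the DNA-sensing pathway, rose (log2FC 0.86 ± 0.18, adjusted p-value 0.00136), as did IRF3, which it activates (log2FC 0.76 ± 0.17, adjusted p-value 0.00209). Of 11 signalling genes 2 rose and 2 fell, of 9 sensing genes tested 2 rose and 0 fell, and 0 of 6 receptors and 0 of 11 targets of gamma-interferon were called by edgeR, with 1 and 0 at an unadjusted p below 0.05 and 0 by DESeq2. Of all genes, 8.74% were called higher and 8.61% lower in this comparison (9.25% and 7.15% in the length-scaled table).

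**Figure D2:**
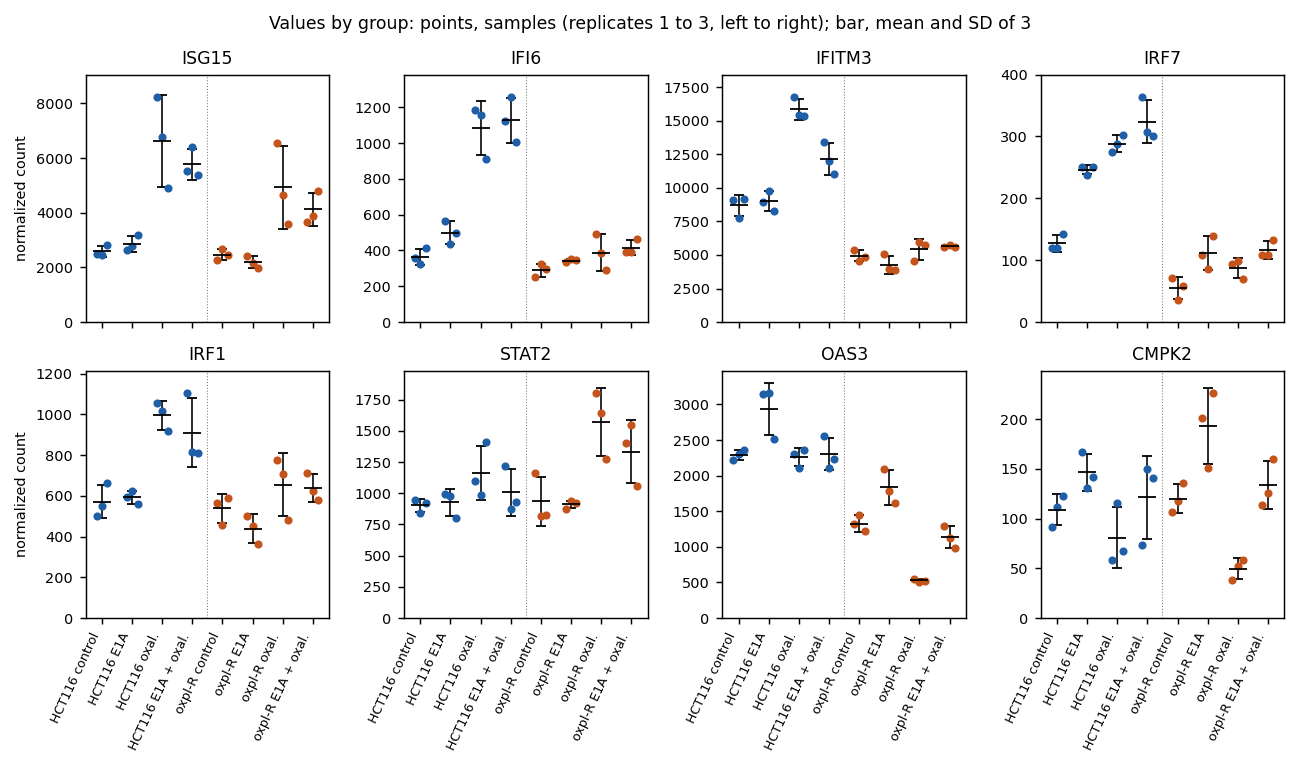
Normalized counts (linear axes from 0) of 8 members in the 8 groups, with points for samples and bars for the mean and SD of 3 samples. ISG15, IFI6 and IFITM3 are higher with oxaliplatin in HCT116, and OAS3 is at 546 or lower in all 3 HCT116 oxpl-R samples given oxaliplatin alone, below every other sample.

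In HCT116 oxpl-R, 2 of 47 members rose with the same dose and 2 fell, beside 3.1% of all genes called higher and 3.01% called lower in the table of estimated counts (2.79% and 3.01% in the length-scaled table). The median log2FC of the 47 members was 0.24, and that of all genes 0. DESeq2 called 8 members, the 4 and IRF7, IRF9, TRIM5 and TRIM21. ISG15 had 2273, 2663 and 2451 in HCT116 oxpl-R control and 6545, 4654 and 3576 after oxaliplatin (log2FC 1.00 ± 0.20, adjusted p-value 0.000934), so it was the member that edgeR called higher in both lines. DESeq2 called IRF7 and IRF9 higher in both lines as well. STAT2, which carries the activation domain of the interferon-activated complex, had 1162, 819.9 and 824 and 1803, 1643 and 1271 (log2FC 0.75 ± 0.20, adjusted p-value 0.0184), and the call was lost without any 1 of HCT116 oxpl-R control replicates 2 and 3 and HCT116 oxpl-R oxaliplatin replicates 1 and 2 (adjusted p-value 0.0579 to 0.12). Its DNA-binding partner IRF9 had 179.6, 207 and 261 and 292, 325 and 365 (log2FC 0.60 ± 0.22, adjusted p-value 0.112), with treated samples above the controls. IRF9 was not called in this fit. It was called with filterByExpr (adjusted p-value 0.0345) and with a replicate block within each line (adjusted p-value 0.0361), a setting added after the data were seen. Deviations from the group means correlated at 0.104, 0.294 and 0.385 between equal replicate numbers in this comparison. The labels give no shared origin of these samples.

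OAS3, which makes the oligoadenylates that activate RNase L, had the lowest adjusted p-value. It had 1323, 1443 and 1216 in HCT116 oxpl-R control and 546, 511 and 527 after oxaliplatin (log2FC -1.33 ± 0.16, adjusted p-value 7.41e-07). All 3 treated samples lay below every control. CMPK2, a mitochondrial nucleotide kinase, had 107, 118 and 136 and 38.1, 52.3 and 58.7 (log2FC -1.28 ± 0.30, adjusted p-value 0.00553). CMPK2 overlaps RSAD2 on the opposite strand of chromosome 2 near their starts, but RSAD2 had at most 4.29 normalized counts in any HCT116 oxpl-R sample. In the same comparison 13 of 15 E2F targets, genes of S-phase entry, were lower, among them E2F1 at 2533, 3015 and 2860.3 and 717, 594 and 607 (log2FC -2.13 ± 0.18, adjusted p-value 5.95e-10). Whether the low OAS3 and CMPK2 go with this shift was not tested. In HCT116 oxpl-R oxaliplatin, 30.4% and 25.3% of the estimated counts of replicates 1 and 3 were not whole before rounding. Replicate 2 had 17.8%, and no sample of another group exceeded 20.8%. The calls of OAS3 and CMPK2 were kept with any 1 sample of this comparison left out.

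The responses of the lines were compared by the interaction term, which is the log2FC in HCT116 oxpl-R minus that in HCT116. It was called for 4 members, 2 higher and 2 lower, beside 0.864% and 1.91% of all genes (0.902% and 2.73% in the length-scaled table). For OAS3 the term was -1.31 ± 0.23 (adjusted p-value 0.000923), beside 2225, 2300.4 and 2364 in HCT116 control and 2306, 2114 and 2355 after oxaliplatin. For IFI6 it was -1.15 ± 0.29 (adjusted p-value 0.024), with 251, 322 and 299 and 493, 384 and 289.8 in HCT116 oxpl-R. In HCT116 oxpl-R the treated samples overlapped the controls (log2FC 0.42 ± 0.21, adjusted p-value 0.311). TRIM5 had 788, 699 and 743 and 1023, 1021 and 1301 in HCT116 oxpl-R (log2FC 0.58 ± 0.21, adjusted p-value 0.115), against a fall in HCT116 (term 1.23 ± 0.30, adjusted p-value 0.0168). TRIM21, a cytosolic antibody receptor, had 632, 679 and 563 and 421, 479 and 423 in HCT116 against 664, 590.1 and 764 and 1075, 811 and 1030.0 in HCT116 oxpl-R (term 1.03 ± 0.28, adjusted p-value 0.0314). In both TRIM genes treated and control samples did not overlap within a line, and the treated samples were the lower ones in HCT116 and the higher ones in HCT116 oxpl-R. OAS3 kept its call when any 1 of the 12 samples was left out. Without HCT116 oxaliplatin replicate 3, 8 members were called, the 4 above among them, and DESeq2 called 8, the 4 and IFITM2, IFITM3, ISG20 and SP100. IFI6 lost it without any 1 of HCT116 control replicates 1 and 2, HCT116 oxpl-R control replicates 2 and 3 and HCT116 oxpl-R oxaliplatin replicate 3 (adjusted p-value 0.0564 to 0.0986). TRIM5 lost it without any 1 of HCT116 control replicates 1 and 2, HCT116 oxaliplatin replicate 2, HCT116 oxpl-R control replicate 2 and HCT116 oxpl-R oxaliplatin replicate 3 (adjusted p-value 0.0516 to 0.0632). TRIM21 lost it without any 1 of HCT116 control replicates 1 and 2, HCT116 oxaliplatin replicates 1 and 2, HCT116 oxpl-R control replicates 1 and 2 and HCT116 oxpl-R oxaliplatin replicates 1 and 3 (adjusted p-value 0.053 to 0.106). The terms of IRF7 (-0.51 ± 0.35), IFITM3 (-0.73 ± 0.23) and ISG15 (-0.36 ± 0.28) did not pass the test. With DESeq2 the term of IFITM3 passed (adjusted p-value 0.00142), as did that of IFITM2 (adjusted p-value 0.000569).

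**Figure D3:**
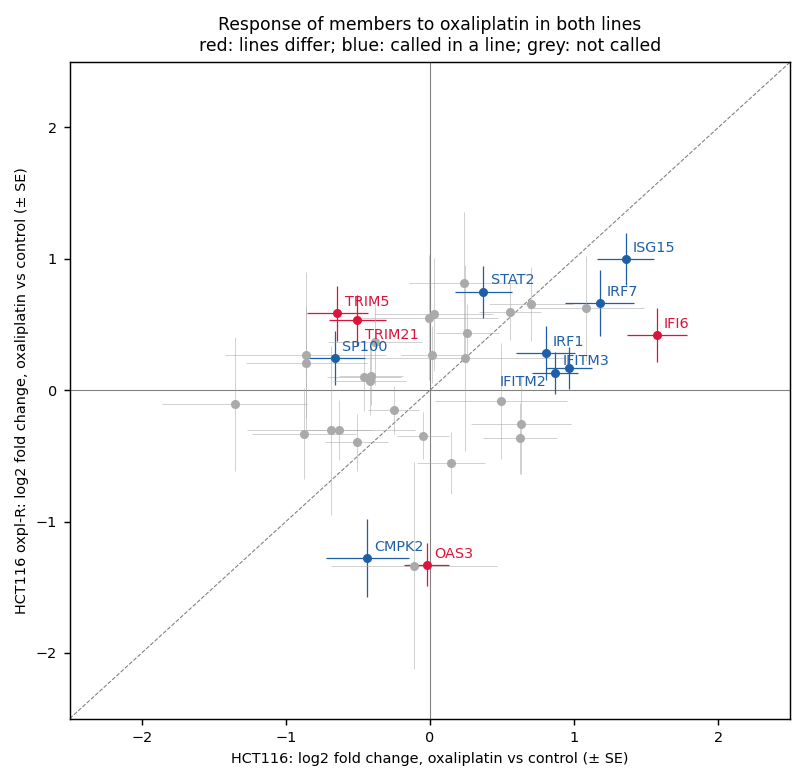
Scatter plot of the log2FC with oxaliplatin in HCT116 (x) against HCT116 oxpl-R (y), with SE bars, for 39 members with a mean normalized count of at least 10 (TRIM22 is left out because of its low counts); the dashed line marks equal responses. IFI6, OAS3, TRIM5 and TRIM21, in red, lie off the line by more than the interaction test allows for, and ISG15 is the member in the upper right that edgeR called in both lines.

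The next question was whether doxycycline, which induces E1A, changed the members without oxaliplatin. By edgeR 0 of 47 members were called in HCT116, where 0.422% of all genes were called higher and 0.0103% lower (0.21% and 0.0131% in the length-scaled table), and 0 in HCT116 oxpl-R, where 0.226% were higher and 0% lower (0.153% and 0.00438%). At an unadjusted p below 0.05 there were 3 members in HCT116 and 5 in HCT116 oxpl-R, and DESeq2 called 1 member in each line. That member was IRF7 in both lines. IRF7 had 120.4, 119 and 143 in HCT116 control and 251, 238 and 251 with doxycycline (log2FC 0.95 ± 0.24, adjusted p-value 0.0713), and 70.4, 36.3 and 59 and 108, 86.3 and 139.7 in HCT116 oxpl-R (log2FC 1.02 ± 0.25, adjusted p-value 0.0932). In each line all 3 samples with doxycycline lay above the controls. With DESeq2 the adjusted p-value was 0.00206 in HCT116 and 0.00307 in HCT116 oxpl-R, while over 15 settings it ranged from 0.00115 to 0.685 and from 0.00307 to 0.858. OAS3 was above the controls in every sample too, with 3144, 3159 and 2516 in HCT116 E1A (log2FC 0.36 ± 0.16) and 2099.5, 1785 and 1619 in HCT116 oxpl-R E1A (log2FC 0.47 ± 0.16), with adjusted p-values of 0.706 and 0.509. These increases did not pass the test. ISG15 had 2627, 2766 and 3202 in HCT116 E1A and 2433, 2159 and 1992 in HCT116 oxpl-R E1A (log2FC 0.15 ± 0.20 and -0.17 ± 0.20). Its samples overlapped the controls in both lines. The median log2FC of the members was 0.05 in HCT116 and 0.26 in HCT116 oxpl-R, against 0 for all genes. Among 8 coactivator genes, which include the E1A-binding proteins CREBBP and EP300, 0 were called with doxycycline alone in either line by edgeR, with 1 in HCT116 and 0 in HCT116 oxpl-R at an unadjusted p below 0.05 and 0 by DESeq2.

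The members were also compared by whether the samples of the groups overlapped. In HCT116, all 3 samples with doxycycline lay above all 3 controls in 6 members (12.8%) and below them in 3 (6.38%), beside 10.4% and 8.48% of all genes (7.72% and 8.52% in the length-scaled table). In HCT116 oxpl-R they lay above in 8 members (17.0%) and below in 1 (2.13%), beside 5.73% and 4.11% of all genes (5.89% and 4.01%). The members above in both lines were IRF7, OAS3, IFI6, CMPK2 and DHX58. CMPK2 had 92, 112 and 123 in HCT116 control and 167, 131 and 142 with doxycycline, and 107, 118 and 136 and 202, 151 and 226 in HCT116 oxpl-R (log2FC 0.43 ± 0.28 and 0.68 ± 0.28). DHX58 had 14.7, 26.5 and 20.9 and 35.1, 38.6 and 30.4, and 24.6, 40.4 and 19 and 41.5, 47.1 and 56.8 in the resistant line (log2FC 0.74 ± 0.41 and 0.79 ± 0.39). IFI6 had 565, 438 and 497 and 333, 349.7 and 346 with doxycycline in the lines (log2FC 0.46 ± 0.20 and 0.24 ± 0.21). The differences in CMPK2, DHX58 and IFI6 were below 1 on the log2 scale, and none passed the test. The other members above in HCT116 oxpl-R were HERC6 (0.57 ± 0.26), IFIH1 (0.37 ± 0.26) and RSAD2, whose samples had at most 4.29 normalized counts.

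With oxaliplatin present, doxycycline again left the members of HCT116 without a call: 0 of 47 by edgeR, with 3 at an unadjusted p below 0.05 and 0 by DESeq2, beside 0.0874% of all genes called higher and 0% lower (0.0657% and 0.00438% in the length-scaled table). ISG15 had 5513, 6421 and 5375 in HCT116 E1A + oxaliplatin (log2FC against oxaliplatin alone -0.20 ± 0.19), IFI6 had 1122, 1258 and 1006 (log2FC 0.06 ± 0.20) and IFITM3 had 13447, 12010.2 and 11071 (log2FC -0.38 ± 0.16, adjusted p-value 1). All 3 IFITM3 values were below those with oxaliplatin alone.

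In HCT116 oxpl-R, 2 members rose when doxycycline preceded oxaliplatin, beside 1.29% of all genes called higher and 0.103% lower (1.29% and 0.136% in the length-scaled table). They were the same OAS3 and CMPK2 that had fallen with oxaliplatin alone. OAS3 had 1299.7, 1130.1 and 991 in HCT116 oxpl-R E1A + oxaliplatin (log2FC 1.11 ± 0.16, adjusted p-value 8.12e-05), above all samples with oxaliplatin alone and, in 2 of 3 samples, below all controls. CMPK2 had 114, 126 and 160.5 (log2FC 1.43 ± 0.30, adjusted p-value 0.0054), overlapping its controls, and its call was lost without any 1 of HCT116 oxpl-R oxaliplatin replicate 1 and HCT116 oxpl-R E1A + oxaliplatin replicate 3 (adjusted p-value 0.0538 to 0.0552). These comparisons share the samples given oxaliplatin alone, so low values there enter both. E2F targets rose in 12 of 15 cases in the same comparison, with E2F1 at 3099, 2363 and 3359.7 (log2FC 2.20 ± 0.18, adjusted p-value 1.11e-09), and its part in the result was not tested. The effect of doxycycline with oxaliplatin differed between the lines for OAS3 alone among the members (term 1.08 ± 0.23, adjusted p-value 0.0458), beside 0.129% of all genes called higher and 0.00514% lower (0.171% and 0% in the length-scaled table). This call was lost without any 1 of HCT116 oxaliplatin replicates 1, 2 and 3, HCT116 E1A + oxaliplatin replicates 2 and 3, HCT116 oxpl-R oxaliplatin replicates 2 and 3 and HCT116 oxpl-R E1A + oxaliplatin replicates 1 and 2 (adjusted p-value 0.0505 to 0.189). The terms that compare the effect of doxycycline with and without oxaliplatin were called for 0 members in each line by edgeR, with 2 at an unadjusted p below 0.05 in each line and 0 by DESeq2. All genes called for these terms made up 0.00514% higher and 0.00514% lower in HCT116 (0.00438% and 0.00438% in the length-scaled table) and 0.036% and 0% in HCT116 oxpl-R (0.0613% and 0%). For the difference between the lines in the effect of doxycycline alone, 0 members were called by edgeR, with 2 at an unadjusted p below 0.05 and 0 by DESeq2, beside 0.00514% of all genes higher and 0.00514% lower (0.00438% and 0%).

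The oxaliplatin response was also measured in cells given doxycycline. In HCT116, 5 members were higher in E1A + oxaliplatin than in E1A and 2 lower, beside 3.4% and 4.69% of all genes (4% and 3.04% in the length-scaled table). IFITM2 had 3546, 3857 and 3232 in HCT116 E1A and 5606, 5331 and 4984 in E1A + oxaliplatin (log2FC 0.58 ± 0.16, adjusted p-value 0.0202). TRIM5 had 729.7, 681 and 507 and 374, 357 and 446 (log2FC -0.70 ± 0.21, adjusted p-value 0.0394). These genes, IFI6 (log2FC 1.17 ± 0.21, adjusted p-value 0.000392), ISG15 (log2FC 1.01 ± 0.20, adjusted p-value 0.00117) and TRIM22 moved in the direction they had without doxycycline. IRF9 had 232, 215 and 166 in HCT116 E1A and 344, 383 and 258 in E1A + oxaliplatin (log2FC 0.68 ± 0.22, adjusted p-value 0.0484). HERC6, a ligase of the HERC family, had 431, 355 and 238 and 178, 212 and 191 (log2FC -0.82 ± 0.25, adjusted p-value 0.0419). TRIM22 had 2.97, 0 and 0 and 8.49, 11.9 and 22.5, a ratio of 14.2 with a 95% exact interval of 4.56 to 71.8, and 3 raw counts in the lower group. DESeq2 called 11 members, the 7 and IFITM3 and IRF1, which rose, and PARP9 and TRIM21, which fell. IRF1 was also called in every other alternative fit that kept all replicates (adjusted p-value 0.0118 to 0.0407). IFITM3 was also called with RLE size factors, filterByExpr and the line alone (adjusted p-value 0.0109 to 0.0454). PARP9 was also called with filterByExpr, a replicate block and a block within each line (adjusted p-value 0.0391 to 0.0431). Leaving out 1 sample ended 5 of the 7 calls. With the length-scaled table HERC6 (log2FC -0.53, adjusted p-value 0.419) and IRF9 (adjusted p-value 0.0813) lost their calls. IRF9 lost its call without any 1 of HCT116 E1A replicates 1, 2 and 3 and HCT116 E1A + oxaliplatin replicates 1 and 2 (adjusted p-value 0.0686 to 0.198). HERC6 lost its call without any 1 of HCT116 E1A replicates 1 and 2 and HCT116 E1A + oxaliplatin replicates 1, 2 and 3 (adjusted p-value 0.137 to 0.284). TRIM22 lost it without any 1 of HCT116 E1A replicates 2 and 3 and HCT116 E1A + oxaliplatin replicates 2 and 3 (adjusted p-value 0.0692 to 0.189). TRIM5 lost it without any 1 of HCT116 E1A replicates 1 and 2 and HCT116 E1A + oxaliplatin replicates 1 and 2 (adjusted p-value 0.0964 to 0.196). IFITM2 lost it without any 1 of HCT116 E1A replicates 1, 2 and 3 (adjusted p-value 0.0506 to 0.0932).

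Among the ligands, IFNE, an epithelial type I interferon gene, was called in this comparison alone, with 0, 2.03 and 0 in HCT116 E1A and 15.4, 14 and 9.87 in E1A + oxaliplatin (log2FC 4.00 ± 1.03, adjusted p-value 0.0133).

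In HCT116 oxpl-R given doxycycline, ISG15 was higher with oxaliplatin, at 3673, 3895 and 4809 (log2FC 0.91 ± 0.20, adjusted p-value 0.00494), and OAS3 was lower (log2FC -0.69 ± 0.16, adjusted p-value 0.0108). This is 1 member higher and 1 lower, beside 1.7% and 1.1% of all genes (1.47% and 1.05% in the length-scaled table). ISG15 lost its call without HCT116 oxpl-R E1A + oxaliplatin replicate 3 (adjusted p-value 0.0512). OAS3 lost its call without any 1 of HCT116 oxpl-R E1A replicate 1 and HCT116 oxpl-R E1A + oxaliplatin replicates 2 and 3 (adjusted p-value 0.0588 to 0.0877). ISG15 was thus called with oxaliplatin in both lines, with and without doxycycline.

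More members were called between the lines than in any comparison of treatments. In untreated cells, 3 members were higher in HCT116 oxpl-R and 11 were lower, beside 7.19% and 6.93% of all genes in the table of estimated counts (6.75% and 6.04% in the length-scaled table). The share of members called lower was 23.4%. The median log2FC of the members was -0.34, that of all genes 0. The lower members included sensors of RNA (IFIH1, DDX60 and EIF2AK2), makers of oligoadenylates (OAS1 and OAS3), OASL, the factor IRF7, and the membrane proteins BST2 and IFITM3.

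BST2, or tetherin, which holds budding virus at the cell surface, had 64.6, 73.7 and 83.5 in HCT116 control and 1.17, 7.07 and 7.37 in HCT116 oxpl-R control (log2FC -3.77 ± 0.49, adjusted p-value 9.22e-07). DDX60, a helicase that promotes RNA sensing, had 101, 107 and 91.9 and 11.7, 6.06 and 33.7 (log2FC -2.53 ± 0.61, adjusted p-value 0.00381). OAS1, a relative of OAS3, had 25.5, 47.2 and 43.8 and 5.87, 14.1 and 2.11 (log2FC -2.37 ± 0.65, adjusted p-value 0.0113), and lost its call without HCT116 oxpl-R control replicate 3 (adjusted p-value 0.0652). With the length-scaled table OAS1 had a log2FC of -1.42 and lost its call too (adjusted p-value 0.33). In all 3 genes the lines did not overlap, and no HCT116 oxpl-R control sample had more than 33.7 normalized counts. OASL, which activates RIG-I signalling, had 424, 489.6 and 419 and 176, 135 and 166 (log2FC -1.48 ± 0.23, adjusted p-value 1.51e-05). IFIH1 had 127, 101 and 109.5 in HCT116 oxpl-R (log2FC -1.30 ± 0.26, adjusted p-value 0.000531) and IRF7 70.4, 36.3 and 59 (log2FC -1.21 ± 0.25, adjusted p-value 0.000851). These 3 genes too were below every HCT116 control sample. OAS3 (log2FC -0.79 ± 0.16, adjusted p-value 0.00068) and IFITM3, at 5399, 4571 and 4869.7 (log2FC -0.81 ± 0.16, adjusted p-value 0.000505), were lower as well. HERC6 had 203, 268 and 259.9 and 108, 112 and 131 (log2FC -1.06 ± 0.26, adjusted p-value 0.00442), and lost its call with the length-scaled table (adjusted p-value 0.0582). EIF2AK2, at 1491, 1375 and 1073, lost its call (adjusted p-value 0.0306) without any 1 of HCT116 control replicates 1 and 2 and HCT116 oxpl-R control replicates 2 and 3 (adjusted p-value 0.0635 to 0.154). SP110, a nuclear body protein, had 419, 452 and 489 and 271, 219.8 and 327 (log2FC -0.73 ± 0.21, adjusted p-value 0.0209), and lost its call without any 1 of HCT116 control replicates 2 and 3 and HCT116 oxpl-R control replicates 1 and 2 (adjusted p-value 0.06 to 0.143).

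IFI27, a mitochondrial and nuclear envelope protein, was higher in HCT116 oxpl-R, with 50.9, 61.9 and 73.1 in HCT116 control and 143, 117 and 173 in HCT116 oxpl-R control (log2FC 1.22 ± 0.29, adjusted p-value 0.00377). PLSCR1, the phospholipid scramblase, had 883, 985 and 695 and 1689, 1629 and 1770.3 (log2FC 0.99 ± 0.23, adjusted p-value 0.00264). TRIM22 had 7.08, 5.02 and 29.5 in HCT116 oxpl-R control against 3 raw counts in HCT116 control, a ratio of 13.9 with a 95% exact interval of 4.40 to 70.3. IFI27 and PLSCR1 were higher without overlap. TRIM22 lost its call without any 1 of HCT116 control replicates 2 and 3 and HCT116 oxpl-R control replicate 3 (adjusted p-value 0.0939 to 0.227). Members whose log2FC between the untreated lines did not pass the test included ISG15 (-0.07 ± 0.20), IFIT1 (-1.11 ± 0.50), SAMHD1 (-0.10 ± 0.18), a hydrolase of deoxynucleotides, IRF1 (-0.09 ± 0.20) and IRF9 (0.09 ± 0.22).

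The difference held in part in the treated cells. With doxycycline alone, 3 members were higher and 9 lower, beside 6.69% and 7.75% of all genes (6.61% and 5.54% in the length-scaled table). After oxaliplatin, 5 were higher and 14 lower, beside 13.7% and 12% (12.7% and 12.5%). After both, 5 were higher and 13 lower, beside 10.3% and 8.92% (9.14% and 8.82%). The lowest log2FC after oxaliplatin were those of OAS1, with 32.5, 40.3 and 35.1 in HCT116 and 6.02, 0 and 2.35 in HCT116 oxpl-R (log2FC -3.59 ± 0.73, adjusted p-value 0.000307), BST2, with 109, 73.2 and 79.4 and 10.0, 8.89 and 9.39 (log2FC -3.19 ± 0.45, adjusted p-value 2.27e-06), and OAS3 (log2FC -2.10 ± 0.17, adjusted p-value 4.38e-11). Both OAS genes and BST2 were lower without overlap. On the higher side were TRIM5 (log2FC 1.48 ± 0.21, adjusted p-value 4.57e-06), PLSCR1, with 536, 649.5 and 473 in HCT116 and 1093, 1416 and 1615 in HCT116 oxpl-R (log2FC 1.31 ± 0.23, adjusted p-value 5.17e-05), and IFI27, with 141, 77.5 and 84.1 and 221, 242 and 221 (log2FC 1.18 ± 0.29, adjusted p-value 0.00203). Of these only TRIM5 was not called in the untreated lines. IFITM1, at 59.8, 53.1 and 57.3 against 18.1, 15.6 and 21.1 (log2FC -1.63 ± 0.37, adjusted p-value 0.000983), ISG20, an exonuclease, at 169, 221 and 195 against 70.2, 60.0 and 48.1 (log2FC -1.71 ± 0.27, adjusted p-value 9.68e-06), and IFI6 (log2FC -1.48 ± 0.21, adjusted p-value 1.84e-06) were called lower after oxaliplatin and not in the untreated cells. Whether the difference itself changed with the drug was tested by the interaction term, which passed for IFI6 and not for IFITM1 (adjusted p-value 0.42) or ISG20 (adjusted p-value 0.163). With DESeq2 ISG20 passed for the interaction term (adjusted p-value 0.0289) and was also called in the untreated cells (adjusted p-value 0.0295).

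With doxycycline alone, BST2 had 74.3, 60.9 and 51.7 in HCT116 and 11, 21.3 and 6.52 in HCT116 oxpl-R (log2FC -2.28 ± 0.43, adjusted p-value 0.000387). OAS1 had 52.6, 29.4 and 47.2 and 12.7, 6.73 and 13 (log2FC -1.97 ± 0.62, adjusted p-value 0.0289), and DDX60 73.2, 70.1 and 77.6 and 5.08, 15.7 and 38.2 (log2FC -1.90 ± 0.60, adjusted p-value 0.0282). These were the lowest log2FC in that condition, and none of the 3 genes overlapped between the lines. PLSCR1 had 829, 697 and 804 and 1190.4, 1627 and 1866 and IFI27 60.9, 74.1 and 61.9 and 142, 146 and 211, both higher without overlap, as in control.

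After both agents, BST2 had 57.4, 94 and 63.1 in HCT116 and 8.58, 3.79 and 13.2 in HCT116 oxpl-R (log2FC -3.03 ± 0.45, adjusted p-value 8.03e-06). DDX60 had 38.9, 38 and 45.4 and 9.44, 3.79 and 3.89 (log2FC -2.81 ± 0.67, adjusted p-value 0.00269), and SAMD9 211, 265 and 276 against 27.5, 39.8 and 101 (log2FC -2.15 ± 0.74, adjusted p-value 0.0379). These 3 had the lowest log2FC and did not overlap. TRIM5 had 374, 357 and 446 and 1104, 964 and 741 (log2FC 1.25 ± 0.21, adjusted p-value 8.47e-05), PLSCR1 395, 806 and 889.9 and 1595, 1646 and 1694 (log2FC 1.24 ± 0.23, adjusted p-value 0.000186), and IFI27 84, 122 and 89.8 and 139.8, 164 and 297 (log2FC 1.02 ± 0.28, adjusted p-value 0.00958), the highest log2FC among the members with at least 20 normalized counts. IRF7, IFITM3, OAS3, OASL, BST2 and IFIH1 were called lower, and IFI27 and PLSCR1 higher, in all 4 conditions. With the length-scaled table for all members, DDX60, HERC6 and OAS1 lost their calls in E1A (adjusted p-value 0.0886, 0.0633 and 0.179), IFITM2 after oxaliplatin (adjusted p-value 0.106), and IFI27 and IFIH1 after both (adjusted p-value 0.0594 and 0.104). Leaving out 1 sample also ended several calls. In E1A, DDX60 lost its call without any 1 of HCT116 E1A replicates 1, 2 and 3 and HCT116 oxpl-R E1A replicates 1 and 2 (adjusted p-value 0.0574 to 0.117), OAS1 without any 1 of HCT116 E1A replicates 1 and 3 and HCT116 oxpl-R E1A replicate 2 (adjusted p-value 0.0665 to 0.126), HERC6 without any 1 of HCT116 E1A replicate 1 and HCT116 oxpl-R E1A replicate 2 (adjusted p-value 0.0668 to 0.0853) and TRIM22 without any 1 of HCT116 E1A replicates 2 and 3 and HCT116 oxpl-R E1A replicates 2 and 3 (adjusted p-value 0.0723 to 0.136). After oxaliplatin, IFI35 lost its call without any 1 of HCT116 oxaliplatin replicate 1 and HCT116 oxpl-R oxaliplatin replicates 2 and 3 (adjusted p-value 0.0736 to 0.105), IFIH1 without any 1 of HCT116 oxaliplatin replicate 3 and HCT116 oxpl-R oxaliplatin replicate 2 (adjusted p-value 0.091 to 0.154), IFITM2 without HCT116 oxpl-R oxaliplatin replicate 1 (adjusted p-value 0.0671), IRF1 without any 1 of HCT116 oxaliplatin replicate 1 and HCT116 oxpl-R oxaliplatin replicate 3 (adjusted p-value 0.0507 to 0.108) and SP100 without any 1 of HCT116 oxaliplatin replicates 1 and 2 and HCT116 oxpl-R oxaliplatin replicate 3 (adjusted p-value 0.118 to 0.209). After both, IFI27 lost its call without any 1 of HCT116 E1A + oxaliplatin replicates 1 and 3 and HCT116 oxpl-R E1A + oxaliplatin replicate 3 (adjusted p-value 0.0593 to 0.236), IFIH1 without any 1 of HCT116 E1A + oxaliplatin replicate 1 and HCT116 oxpl-R E1A + oxaliplatin replicates 2 and 3 (adjusted p-value 0.0517 to 0.091), PARP9 without any 1 of HCT116 E1A + oxaliplatin replicates 1, 2 and 3 and HCT116 oxpl-R E1A + oxaliplatin replicates 1 and 2 (adjusted p-value 0.0785 to 0.234), SAMD9 without any 1 of HCT116 E1A + oxaliplatin replicates 1, 2 and 3 and HCT116 oxpl-R E1A + oxaliplatin replicates 1 and 2 (adjusted p-value 0.0608 to 0.139), TRIM14 without any 1 of HCT116 E1A + oxaliplatin replicate 1 and HCT116 oxpl-R E1A + oxaliplatin replicates 2 and 3 (adjusted p-value 0.0523 to 0.143) and TRIM21 without HCT116 E1A + oxaliplatin replicate 1 (adjusted p-value 0.0728).

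**Figure D4:**
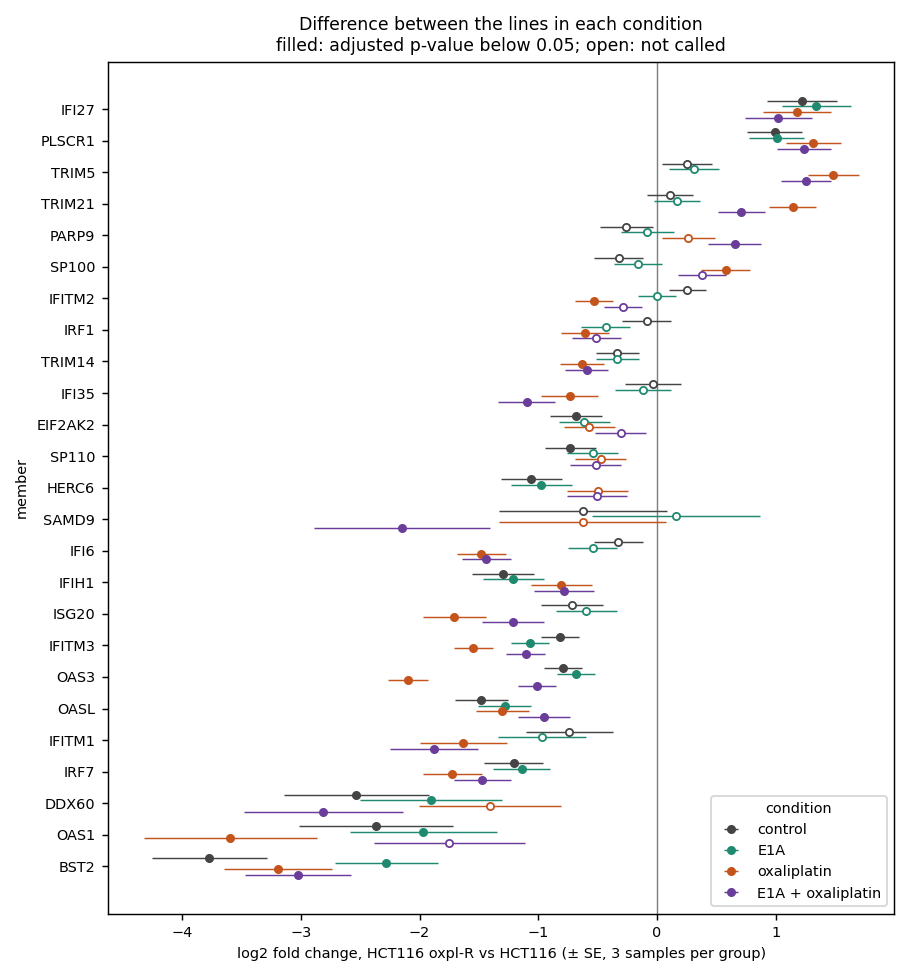
Log2FC (± SE) of HCT116 oxpl-R against HCT116 in the 4 conditions, for 25 members called in at least 1 of them (TRIM22 is left out because of its low counts); filled points have an adjusted p-value below 0.05. BST2, OAS1 and DDX60 lie furthest to the left, and IFI27 and PLSCR1 lie to the right of 0 in all 4 conditions.

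Other genes of the pathway were also called between the lines. Between the untreated lines 7.19% of all genes were called higher and 6.93% lower (6.75% and 6.04% in the length-scaled table). In untreated cells 4 of 11 signalling genes were lower in HCT116 oxpl-R and 0 higher. The lowest was SOCS1, the feedback inhibitor of Janus kinases, at 297, 276 and 267 in HCT116 control and 47.2, 33.1 and 19.7 in HCT116 oxpl-R control (log2FC -3.07 ± 0.31, adjusted p-value 2.40e-08). IRF2, a repressor of the same elements, was lower too (log2FC -1.48 ± 0.27, adjusted p-value 0.00021), as were JAK1 (log2FC -1.19 ± 0.20, adjusted p-value 6.35e-05) and STAT3 (log2FC -0.61 ± 0.18, adjusted p-value 0.0251). Of 6 receptor genes, IFNAR2, of the type I receptor, was higher (log2FC 0.55 ± 0.19, adjusted p-value 0.0493) and IFNLR1, of the lambda receptor, lower (log2FC -0.59 ± 0.18, adjusted p-value 0.0287). After oxaliplatin, 4 receptor genes were higher and 1 lower, beside 13.7% and 12% of all genes (12.7% and 12.5% in the length-scaled table). The coactivator gene CREBBP was lower in the untreated resistant line (log2FC -0.74 ± 0.20, adjusted p-value 0.00963), and of 8 coactivators 2 were lower and 1 higher. Among 11 targets of gamma-interferon GBP2 alone was called (log2FC 1.83 ± 0.62, adjusted p-value 0.0462).

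IRF9, the DNA-binding factor, had 213, 228 and 169 in HCT116 control and 337, 300.4 and 261 after oxaliplatin, and in HCT116 oxpl-R 164, 166 and 184 with E1A and 266, 256 and 252 with both. In both lines, with or without doxycycline, each sample given oxaliplatin lay above the matched samples without it, and the log2FC of 0.55 to 0.68 passed the test in HCT116 E1A cells alone. STAT2 had 943, 842 and 922, 995, 981 and 804, 1099, 990.3 and 1407 and 1219, 871 and 930.1 in HCT116 control, E1A, oxaliplatin and both, and 877, 937 and 920.1 and 1400.0, 1545 and 1059 in HCT116 oxpl-R E1A and both. IRF1 had 594, 622 and 561 and 1104, 815 and 812 in HCT116 E1A and both, and 566, 459 and 589, 502, 453 and 361, 777, 708 and 479.8 and 712, 625 and 579.5 in the 4 HCT116 oxpl-R groups in the same order. IRF1 values after oxaliplatin overlapped the controls in HCT116 oxpl-R and not in HCT116. IRF7 had 364, 308 and 299.9 in HCT116 given both, and 93.3, 98.9 and 69.2 and 109, 108 and 133 in HCT116 oxpl-R given oxaliplatin and both. In every condition the IRF7 samples of the lines did not overlap.

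Among the sensors, IFIH1 had 378, 352 and 276 in HCT116 E1A and 219, 206 and 237 with both, and 128, 140.1 and 167, 126, 87.8 and 139.6 and 147, 139 and 98.1 in the treated HCT116 oxpl-R groups. EIF2AK2 had 2173, 2079 and 1637 and 1445, 1248 and 1390.0 in HCT116 E1A and both, and 1295, 1435 and 1122, 765, 1201 and 1028 and 1291, 1247 and 766 in HCT116 oxpl-R. The lines overlapped for IFIH1 after oxaliplatin and for EIF2AK2 after oxaliplatin and after both agents. DHX58 had 61.5, 35 and 23.7 in HCT116 given both, and 53.2, 41.1 and 35.2 and 24.9, 54 and 58.4 in HCT116 oxpl-R given oxaliplatin and both. CGAS stayed at or below 12.3 normalized counts in all E1A samples, with 0, 4.06 and 9 and 4.10, 0 and 10.9 in HCT116 and 8.47, 12.3 and 2.79 and 6.86, 0.947 and 2.34 in HCT116 oxpl-R without and with oxaliplatin.

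The IFIT genes form a cluster on chromosome 10. IFIT1 had 92.8, 83.3 and 100.1 and 25.6, 115 and 121 in HCT116 E1A and both, and 72.8, 24.2 and 59, 17.8, 49.3 and 99.6, 30.1, 41.1 and 73.9 and 47.2, 55.9 and 49.9 in HCT116 oxpl-R. IFIT2 had 57.8, 29.4 and 59.6 and 44, 27 and 53.3, and 24.6, 17.2 and 16.9, 28.8, 13.4 and 30.7, 23.1, 20 and 44.6 and 37.7, 24.6 and 42.1. IFIT3 had 27.9, 41.6 and 10.1 and 16.4, 9 and 17.8, and 3.52, 7.07 and 19, 17.8, 6.73 and 19.6, 10.0, 3.34 and 10.6 and 6.01, 8.53 and 3.89. IFIT1, IFIT2, IFIT3 and IFIT5 were called in none of the 12 comparisons of 2 groups in the main edgeR fit. Replicates of 1 group differed widely in these genes. With the compared groups alone, IFIT5 was lower with oxaliplatin in HCT116 (adjusted p-value 0.0335) and IFIT1 lower in untreated HCT116 oxpl-R (adjusted p-value 0.0427). With a block within each line IFIT5 passed too (adjusted p-value 0.0453). With a replicate block, IFIT2 was lower in HCT116 oxpl-R E1A than in HCT116 E1A (adjusted p-value 0.0329). HERC5 had 235, 232 and 162 in HCT116 control, 238, 232 and 290.1 with E1A, 128, 166 and 333 with oxaliplatin and 207, 463 and 432 with both, with overlap between control and oxaliplatin. OAS1 had 37.9, 24 and 16.8 and 3.43, 17.1 and 3.12 in the lines given both agents. MX1 had 13.4, 22.3 and 18 and 25.6, 15 and 12.8 in HCT116 E1A and both, and 23.7, 20.2 and 41 and 22.3, 20.8 and 20.3 in HCT116 oxpl-R. OAS3 had 2551, 2114 and 2239 in HCT116 given both agents, and IFI6 had 393, 389 and 467 in HCT116 oxpl-R given both.

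The IFITM genes encode small membrane proteins against viral entry. IFITM1 had 51.9, 27.5 and 30.3, 25.8, 40.6 and 33.7 and 42, 62 and 62.2 in HCT116 control, E1A and both, and 22.3, 20.2 and 23.2, 17.8, 13.4 and 19.6 and 11.2, 14.2 and 19.5 in HCT116 oxpl-R. IFITM2 had 3895, 4063 and 3905, 4127, 3354 and 3150.5, 3552, 4426 and 5380.0 and 4065, 4466 and 4537 in HCT116 oxpl-R control, E1A, oxaliplatin and both. IFITM3 had 8933, 9774 and 8275 in HCT116 E1A, and 5054, 3942 and 3849, 4549, 5966 and 5767 and 5622, 5745 and 5603 in HCT116 oxpl-R E1A, oxaliplatin and both. No HCT116 oxpl-R sample of IFITM3 reached the lowest HCT116 sample, and IFITM1 did not overlap between the lines in any condition.

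SAMHD1, which depletes the nucleotides that viral DNA synthesis needs, had 1179.8, 1301 and 1227, 1468, 1511 and 1171, 958, 979 and 1174 and 1038, 1114 and 1036 in HCT116 control, E1A, oxaliplatin and both, and 977, 1193 and 948 and 1437, 1277 and 953 in HCT116 oxpl-R given oxaliplatin and both. SP100 had 890.3, 809 and 565 and 569, 518 and 675 in HCT116 E1A and both, and 630.2, 620.2 and 859, 691, 741 and 595, 749.8, 744 and 1003 and 728, 798 and 763 in the HCT116 oxpl-R groups. SAMHD1 was called in no comparison of 2 groups, and SP100 in HCT116 with oxaliplatin and between the lines after it. PARP9 had 318, 337 and 286, 389.9, 365 and 265 and 180.3, 222 and 229.9 in HCT116 control, E1A and both, and 311, 244 and 232, 355, 305 and 305, 256, 269 and 325 and 413, 333 and 250 in HCT116 oxpl-R. PARP14 had 324, 345 and 298, 424, 355 and 312 and 236, 188 and 187, and 169, 153 and 239, 276, 192 and 346, 321, 136 and 269 and 202, 195 and 159.7, and was called in no comparison of 2 groups in the main edgeR fit. With the compared groups alone PARP14 was lower in untreated HCT116 oxpl-R than in HCT116 (adjusted p-value 0.00652). In that setting it was also lower in HCT116 E1A + oxaliplatin than in HCT116 E1A (adjusted p-value 0.0442). TRIM22 had 3.41, 19.8 and 20.2, 31.1, 7.79 and 22.4 and 20.8, 6.66 and 48 in HCT116 oxpl-R E1A, oxaliplatin and both, with overlap between all 3 groups.

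Replicates differed within HCT116 oxpl-R, in the members and in all genes. In 6 of the 40 members of the heat map (15%), replicate 3 was the highest sample in all 4 groups, beside 9.07% of the 13227 genes with a mean of at least 10, while replicates 1 and 2 were highest throughout in 0 members and in 5.20% and 4.17% of those genes. Replicate 3 was the lowest throughout in 2 members (5%), beside 9.04% of the genes. Nothing particular to the members is read from this. The 6 members were CMPK2, HERC5, IFIT5, IFITM1, PLSCR1 and SAMD9. SAMD9, an antiviral growth suppressor, had 61, 41.4 and 312 in control, 79.6, 42.6 and 399 with E1A, 82.3, 42.2 and 368 with oxaliplatin and 27.5, 39.8 and 101 with both. HERC5, the ligase that attaches ISG15, had 146, 84.8 and 229.6, 166, 109 and 387, 264, 67.8 and 343 and 141, 186 and 414 in the same order. IFIT5, which binds RNA with a triphosphate end, had 518, 207 and 591, 150.0, 219.7 and 603, 342, 397 and 781 and 346, 503 and 589. In SAMD9 replicate 3 exceeded 1.5 times both other replicates in all 4 groups. SAMHD1 and TRIM14 were lowest in replicate 3 of all 4 groups, and SAMHD1 had 1245, 1197 and 1020.5 in control and 1574, 1574 and 1235 with E1A. In HCT116, 0 members had replicate 3 highest in all 4 groups.

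**Figure D5:**
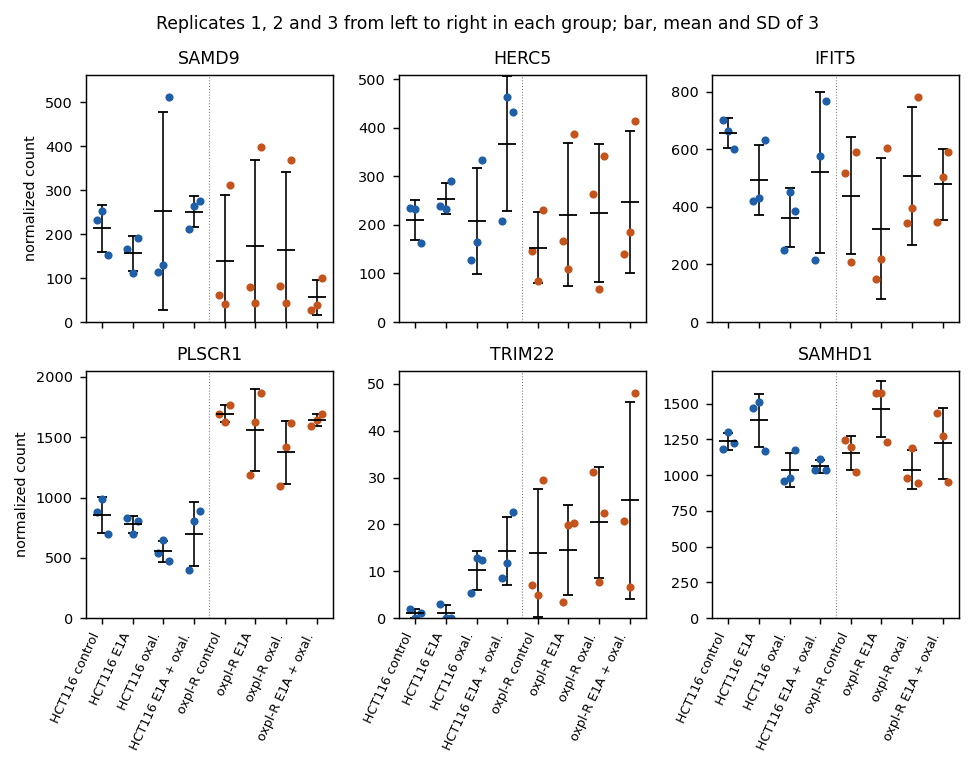
Normalized counts (linear axes from 0) of 6 members, with replicates 1, 2 and 3 from left to right in each group and bars for the mean and SD of 3 samples. In HCT116 oxpl-R (orange), replicate 3 of SAMD9, HERC5, IFIT5 and PLSCR1 is the highest sample of each group and replicate 3 of SAMHD1 is the lowest.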

How the data were processed

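RNA sequencing of 24 samples in 8 groups was used as deposited. The authors trimmed reads with Trimmomatic, quantified transcripts with Salmon 1.6.0 and summarised them per gene with tximport, giving estimated counts per gene, which were rounded here to whole numbers. The deposited table of estimated counts held 33113 genes and ended at the symbol SETP6; the other deposited table, named TPM, held 37967 genes, ended at TSC22D3 and was read as length-scaled estimated counts, since its values summed to between 28004261 and 42613322 per sample. Totals of the first table were between 24838095 and 37927720. Strandedness of the counting is not given in the sources used here.

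Members and gene lists were chosen with earlier results of these data known. Every sample's value is given for 27 members fixed by role and for the 3 members with the highest and the 3 with the lowest log2FC among those called in a comparison with at least 20 normalized counts; other genes named come from fixed pathway lists, and which of them to name was decided after their values were seen. 1 gene of the signalling list is not reported here and is left out of its counts. Each table was tested with edgeR 4.0.16 in R 4.3.3 (TMM normalization, quasi-likelihood test, 1 fit over all 24 samples, genes with a count in any sample, 19452 and 22833 genes, Benjamini-Hochberg adjustment over all of them; adjusted p below 0.05). SE is the absolute log2FC divided by the square root of F. Normalized counts are counts scaled to the mean effective library size. Exact counting intervals are 95% intervals. The fit was tested on simulated data. Alternatives were RLE size factors, filterByExpr, DESeq2 1.42.0, a replicate block, the groups compared alone, the length-scaled table for all members, each sample left out in turn and, added after the data were seen, a block within each line and each line alone. Deviations from the group means correlated above 0.1 in every pair of equal replicate numbers for oxaliplatin against control in HCT116 oxpl-R (0.104, 0.294 and 0.385) and for E1A + oxaliplatin against E1A in it (0.306, 0.319 and 0.418), and in no other comparison; the labels give the numbers and no shared origin. Gene positions are from GENCODE release 44 and promoter windows from RefSeq, both GRCh38. Tests of whole gene sets were not used.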

Additional observations from a re-analysis of the deposited data

Results flagged for a closer look

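In 5 cases the test of the difference itself found that a treatment moved a member differently in the lines (edgeR quasi-likelihood interaction term, HCT116 oxpl-R minus HCT116, log2 scale). For oxaliplatin these were OAS3 (-1.306), IFI6 (-1.154), TRIM21 (1.034) and TRIM5 (1.228). For doxycycline in the presence of oxaliplatin it was OAS3 (1.083). The OAS3 terms share the samples given oxaliplatin alone, so they are not independent. In IFI35, every sample given both agents lay above every E1A sample in HCT116 and below every E1A sample in HCT116 oxpl-R, with a difference of -0.9758 between the log2FC of the lines; this difference was not tested. Only members with a mean of at least 20 normalized counts in the higher group of both lines were considered for the untested cases. No formal test for an outlying sample was made, since each group held 3 samples. HCT116 oxaliplatin replicate 3 and replicate 3 of HCT116 oxpl-R are described above. HCT116 E1A + oxaliplatin replicate 1 also stood apart. There 6 of the 40 members of the heat map (15%) were more than 1.5-fold below both other replicates. The share among the 13227 genes with a mean of at least 10 was 22.0%. In the same sample 3 members (7.5%) were more than 1.5-fold above both others, beside 5.81% of these genes.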

How the results depend on the processing

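Of 92 calls of members, 64 were kept in every other setting, 55 also without any 1 sample, and 0 changed sign. RLE size factors kept 90, filterByExpr 91 and DESeq2 92 of them, 82 were kept with the length-scaled table for all members, and 73 with the compared groups alone. The count of called members moved by over 1.5 times, or to or from 0, as follows. With RLE size factors the line by E1A term with oxaliplatin gave 0. With filterByExpr, E1A against control gave 1 in HCT116 and 1 in HCT116 oxpl-R, oxaliplatin in HCT116 oxpl-R gave 7 and the line by oxaliplatin term 7. With DESeq2 these gave 1, 1, 8 and 8, oxaliplatin in HCT116 gave 14, and E1A + oxaliplatin against E1A in HCT116 gave 11. With the compared groups alone, E1A in HCT116 gave 1, E1A + oxaliplatin against oxaliplatin in HCT116 oxpl-R gave 1, against E1A there 1, and the line by E1A term with oxaliplatin 0. With each line alone, E1A in HCT116 gave 1. The cause was not tested.

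A replicate block kept 92 of 92 calls. It changed no call in the comparisons where deviations correlated above 0.1 in every pair of equal replicate numbers (4 and 2 members). A block within each line gave 5 and 2 there, adding IRF9 for oxaliplatin in HCT116 oxpl-R. The first block gave 1 for E1A in HCT116, as did the block within each line, which gave 14 for oxaliplatin in HCT116, where the deviations did not correlate in this way.

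With 1 sample left out, the counts ranged from 5 to 12 (oxaliplatin, HCT116), 2 to 7 (E1A + oxaliplatin against E1A, HCT116), 3 to 4 (oxaliplatin, HCT116 oxpl-R), 1 to 2 and 0 to 2 (E1A + oxaliplatin against oxaliplatin and against E1A, HCT116 oxpl-R), 1 to 8 (line by oxaliplatin), 0 to 1 (line by E1A with oxaliplatin), 11 to 13, 8 to 12, 18 to 21 and 12 to 18 (lines in control, E1A, oxaliplatin and both). The share of promoters with the core was 42.1% with CT required and 73.7% with the shorter unit, beside 71.1%. Depth limits 7 members with no more than 20 counts in any sample, and the ratios of TRIM22, which had more, have wide intervals.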
